A study of Mus musculus with 6 samples.

Results

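The genes of mitosis described here are 48 listed genes of the G2/M transition, the spindle, the kinetochore and cytokinesis, chosen by name and found as 48 of the 24047 gene rows of the count table. They were measured by RNA sequencing in monocytes from kidneys of mice with nephrotoxic nephritis (replicates 7, 8 and 22, called double_pos in the labels) and from spleen and bone marrow of such mice (replicates 2, 24 and 26, called double). Nephrotoxic nephritis is an antibody-driven injury of the glomeruli, the filters of the kidney. All groups were wild-type mice with the strain label C5/Bl6, aged 8 to 10 weeks and killed on day 13, and 10 mice were used in the series. An EasySep mouse kit and sorting are described for the kidney cells, with neither sort markers named nor any isolation given for the spleen and marrow cells. No library came from healthy mice, so tissue, isolation and disease cannot be told apart. Nothing states that the replicates came from separate animals, and the p-values therefore cover only the spread among these libraries.

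Cells that divide make the products of these genes mainly in G2 and mitosis, and cells that have left the cycle keep most of them silent. Cyclin-dependent kinase 1 with its cyclins starts mitosis, kinetochores join chromosomes to spindle microtubules, and the anaphase-promoting complex ends mitosis by marking securin and the cyclins for destruction. In bone marrow, the precursors of monocytes and granulocytes divide, whereas circulating monocytes are largely non-dividing.

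Almost the whole set was lower in kidney monocytes. Of the 48 genes, all passed the filter on low counts, 44 were lower in kidney than in spleen and marrow, and 0 were higher (edgeR quasi-likelihood test, Benjamini-Hochberg adjusted p under 0.05). Over all 10626 genes tested, 5.9% were called lower and 7.83% higher. The median log2 fold change (kidney over spleen and marrow) was -2.90 for the 48 genes and 0.05 for all genes tested. A fall of at least 4-fold was fitted for 47 of them, against 2.84% of all genes, and of at least 8-fold for 21, against 1.2% of all genes. In 47 of the 48, every kidney library lay below every spleen and marrow library, which was so for 18.8% of all genes tested. The exception was Pttg1, which encodes securin. Below, a value with its standard error (SE) in parentheses after the levels is the log2 fold change of kidney over spleen and marrow, with its adjusted p. The 4 genes that did not pass the test were Nek2, Melk, Ube2c and Pttg1.

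**Figure D1:**
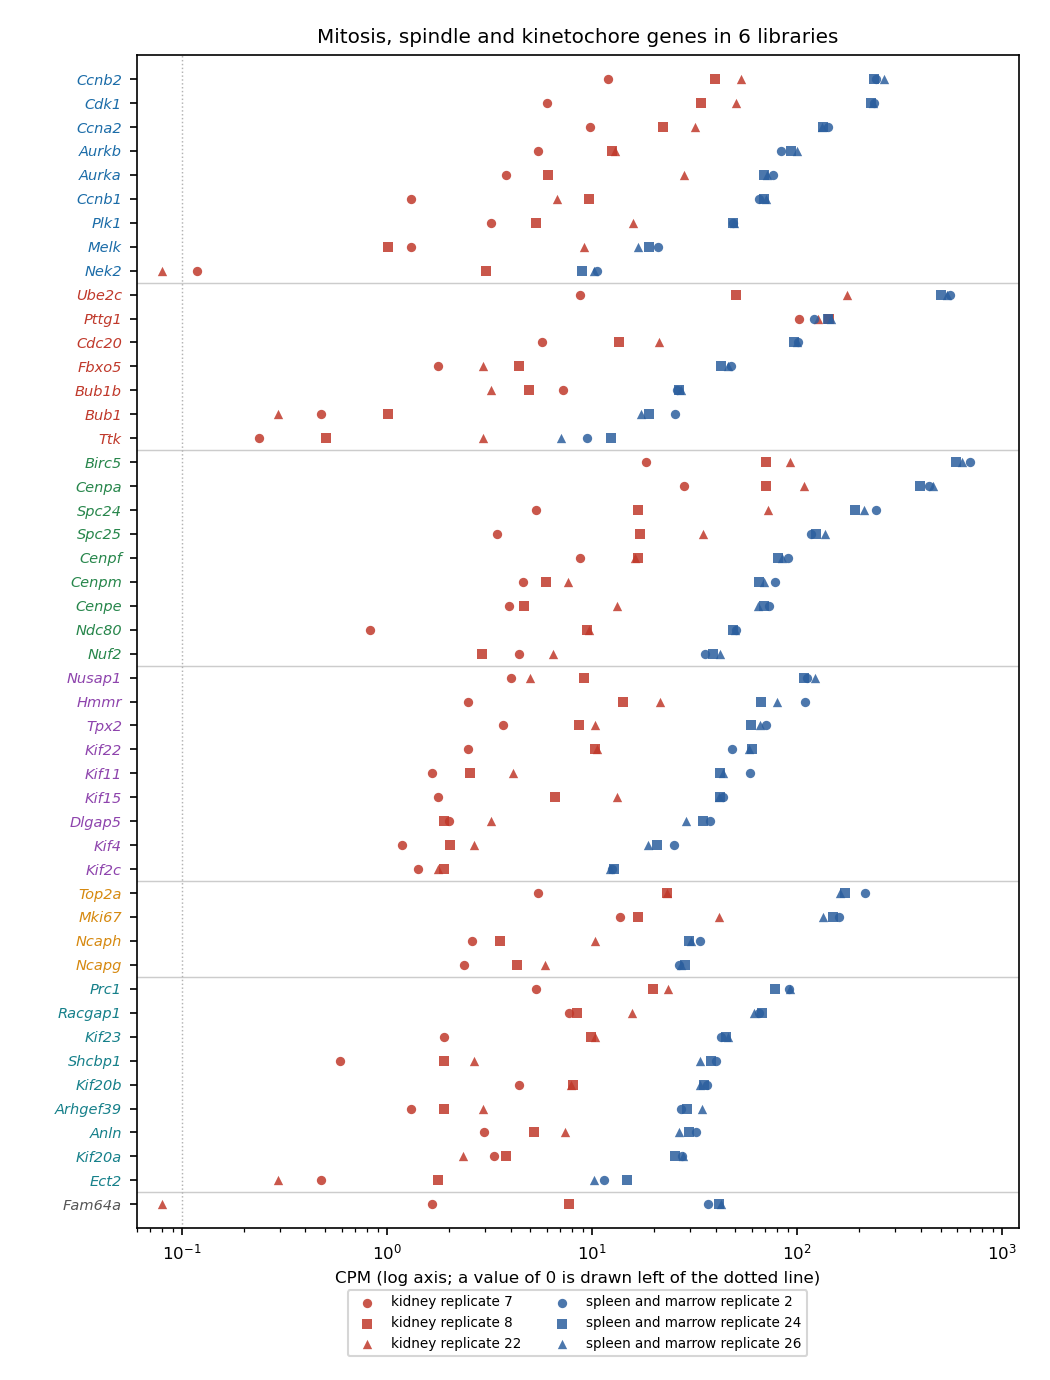
Level of each of the 48 mitosis genes in CPM (counts scaled to library size, log axis) in the 3 kidney libraries (red) and the 3 spleen and marrow libraries (blue), with genes grouped by role and a value of 0 drawn left of the dotted line. The red and blue points are apart for every gene but Pttg1, and the red points are spread more widely.

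The level of the set differed among the kidney libraries. The 48 genes summed to 321, 739 and 1126 CPM in kidney replicates 7, 8 and 22, against 4999, 4584 and 4817 CPM in spleen and marrow replicates 2, 24 and 26. Kidney replicates 7, 8 and 22 thus held 6.70%, 15.4% and 23.5% of the spleen and marrow mean. In CPM, kidney replicate 7 was the lowest kidney library for 39 of the 48 genes, and kidney replicate 22 the highest for 35. In the deposited FPKM values, scaled by the authors, this order changed for some genes. Ccna2 had 1.03, 3.28 and 2.84 FPKM and Top2a 0.545, 2.17 and 1.97 FPKM in kidney replicates 7, 8 and 22. For Ube2c, with 6.85, 34.5 and 84.7 FPKM, kidney replicate 22 stayed the highest. The SD of log2(CPM + 0.5) was larger in kidney than in spleen and marrow for 48 of 48 genes, with a median of 0.867 in kidney and 0.112 in spleen and marrow. Among the 43 genes with over 3 counts in each kidney library, the highest kidney library exceeded the lowest by a median ratio of 3.38. That ratio was largest for Ube2c, at 20.03, and smallest for the microtubule-depolymerizing kinesin Kif2c, at 1.33. In spleen and marrow the median ratio over the 48 genes was 1.17.

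Among the kidney libraries, summed granulocyte markers had the same order as the summed mitosis genes, as had some other marker lists but not all. Summed granulocyte precursor markers (11 of 12 listed genes had a row, none at 0 in a whole group) were 381, 1400 and 16530 CPM in kidney replicates 7, 8 and 22, against 10590 to 12300 CPM in spleen and marrow. For the early granule gene Elane, the levels were 2.37, 25.7 and 246 CPM in these kidney libraries, against 1727, 1078 and 1162 CPM in spleen and marrow replicates 2, 24 and 26. Summed neutrophil markers (7 of 7 with a row) were 1040, 3332 and 29790 CPM in kidney replicates 7, 8 and 22, against 17100 to 21230 CPM in spleen and marrow. Kidney replicate 7 was the lowest and kidney replicate 22 the highest kidney library for 11 of the 11 precursor markers. Both sums of kidney replicate 22 exceeded those of spleen and marrow, but single markers went both ways. Cebpe, Camp, Ngp, Ltf and Lcn2 were above every spleen and marrow library there, and Elane, Mpo, Prtn3, Ctsg, Ms4a3 and Fcnb below every one. S100a8 and S100a9 made up most of the neutrophil sum. Without them, a sum formed after the values were seen, the 5 remaining markers summed to 203, 215 and 293 CPM in kidney replicates 7, 8 and 22, against 376 to 624 CPM in spleen and marrow. Summed T and NK cell markers were 8.18, 19.3 and 32.01 CPM in kidney replicates 7, 8 and 22, against 87.3 to 124 CPM in spleen and marrow. Nkg7, at 0.237, 7.71 and 26.4 CPM in the kidney libraries, carried most of the difference among them. Without Nkg7 the sums were 7.94, 11.6 and 5.58 CPM in the kidney libraries, against 13.5 to 17.0 CPM in spleen and marrow. Stem and progenitor markers summed to 63.9, 94.2 and 11.5 CPM in kidney replicates 7, 8 and 22, and erythroid markers to 6.87, 15.4 and 1.47 CPM. B and plasma cell markers summed to 227, 276 and 357 CPM there, and megakaryocyte and platelet markers to 295, 332 and 415 CPM. Macrophage markers were 4579 to 5647 CPM in kidney, against 26.4 to 43.8 CPM in spleen and marrow, and kidney tubule markers 77.6 to 508 CPM in kidney, against 0.345 to 0.536 CPM in spleen and marrow. All 10 monocyte markers were detected in both groups, and 6 were called higher in kidney, 1 lower (Ly6c2) and 3 neither, with a median log2 fold change of 1.11. Their sums were 5363 to 5570 CPM in kidney and 8063 to 8762 CPM in spleen and marrow, and without Ly6c2 they were 4680 to 5046 CPM in kidney and 2902 to 3236 CPM in spleen and marrow. The 4 globin genes were at 0 in the count table in every library, but the deposited FPKM values were not at 0. Hba-a1 had 213, 1817 and 284 FPKM in kidney replicates 7, 8 and 22, against 276, 250.2 and 270.0 FPKM in spleen and marrow, so globin was high in kidney replicate 8 on that scale. The part of these cell types in the mitosis result was not tested, and in bulk RNA fewer dividing cells and less RNA per dividing cell cannot be told apart. Without kidney replicate 22, 47 of the 48 genes were called lower. The share of all genes tested called lower was then 11.1%, against 5.9% with all libraries.

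The calls rested on 3 libraries a group. Under all 19 alternative fits, 30 genes were called lower, and 30 calls were left whenever 1 of the spleen and marrow libraries (replicate 2, 24 or 26) was dropped. The share of all genes called lower was then 1.84%, 1.84% and 1.59%, against 5.9% with all libraries. The 14 calls lost in at least 1 alternative were those of Cdk1, Plk1, Aurka, Ttk, Ndc80, Spc24, Spc25, Kif15, Hmmr, Ncaph, Kif23, Prc1, Ect2 and Fam64a. Their highest adjusted p over the alternatives ran from 0.0639 for Ect2 to 0.178 for Ttk. Without kidney replicate 7 the calls of Aurka, Ttk, Spc24 and Fam64a were lost, and without kidney replicate 8 those of Aurka, Ttk, Spc24, Spc25, Kif15 and Hmmr. Total counts were 3492391 to 7938223 in kidney and 7311991 to 9727489 in spleen and marrow, and 3 counts correspond to at most 0.881 CPM in any library. The lowest total, 3492391, was that of kidney replicate 22.

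**Figure D2:**
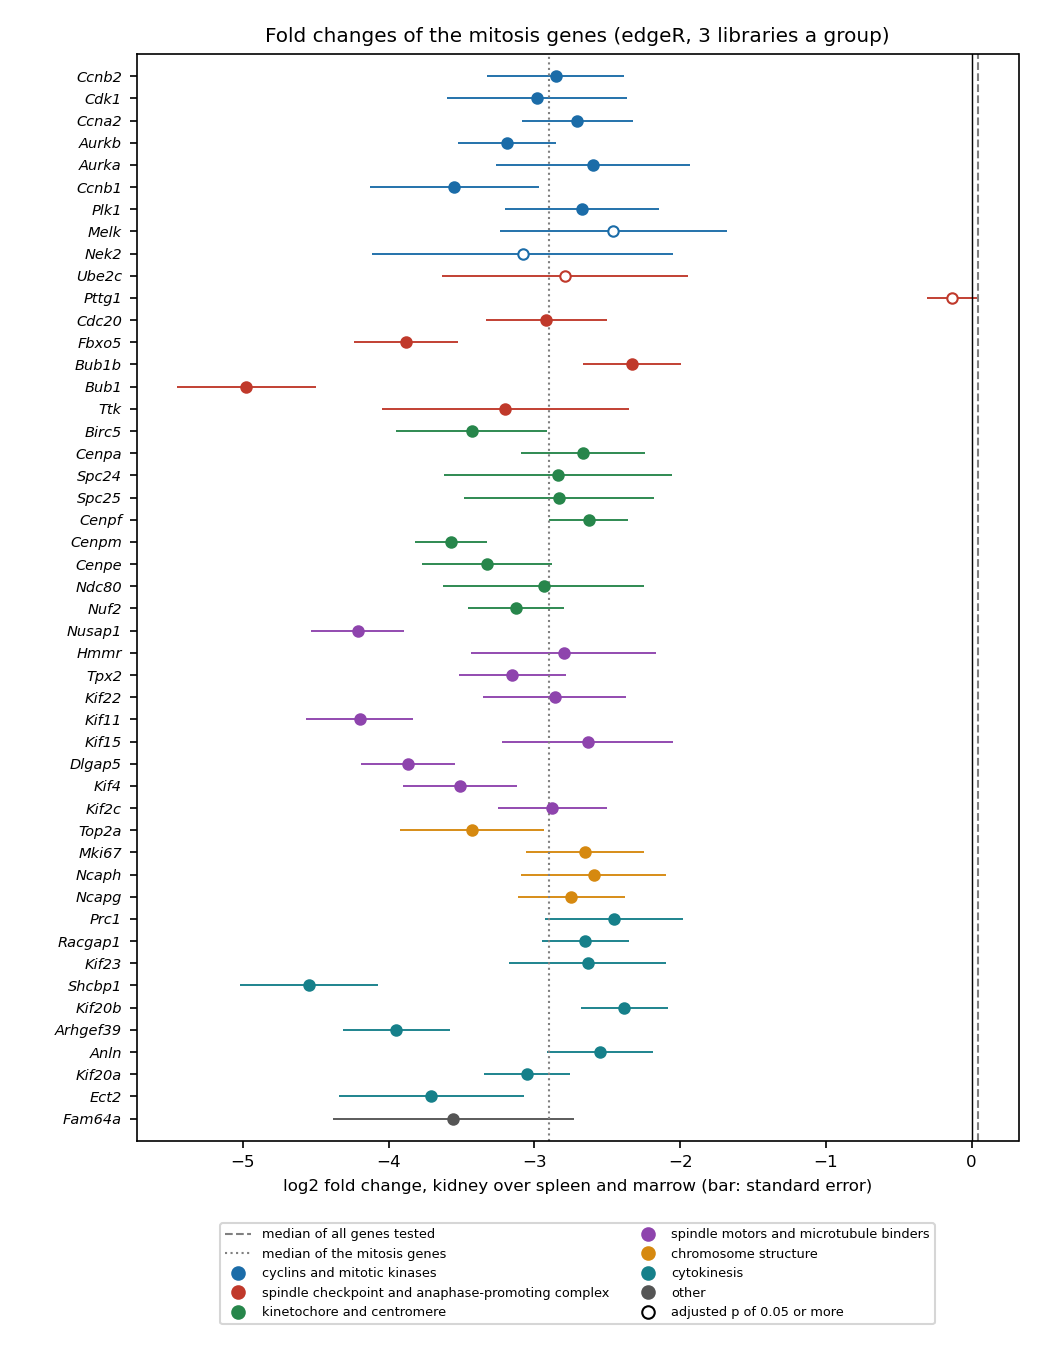
Log2 fold change (kidney over spleen and marrow) of each mitosis gene with its standard error, coloured by role, with open points for an adjusted p of 0.05 or more. The genes lie around their median of -2.90, away from the median of all genes tested at 0.05, and Pttg1 lies at -0.13.

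Promoters of genes that peak in G2 and mitosis are known for the cell cycle genes homology region (CHR), usually spelled TTTGAA, to which the MuvB complexes bind, and for CCAAT boxes, to which NF-Y binds. A less common spelling of the CHR is TTCGAA. Since 47 of the 48 genes were at least 4-fold lower in kidney, RefSeq promoters of the whole list were searched for these motifs on both strands. The windows (GRCm38.p6) ran from 250 bases before to 50 after the start. The list was chosen by name, with earlier results of these data known. Genes of G2 and mitosis are known for these motifs, so the motif shares describe the list and say nothing about levels in these libraries. Windows were present for 40 of the 48 genes, and 47 symbols matched as they stood, while Fam64a matched as Pimreg. TTTGAA was found for 28 of the 40 genes (70%), against 14.7% of the 8577 tested genes with a window. TTCGAA was found for 10% of the 40, against 2.55% of tested genes. CCAAT was found for 70% of the 40, against 43.5% of tested genes, and CCAAT with either CHR form for 62.5%, against 7.25%. These shares were also high in a list of other mitosis genes, described below, of which 58 had a window. There TTTGAA was found for 55.2%, CCAAT for 62.1% and CCAAT with either CHR form for 41.4%. For other motifs the order was the reverse, on few matches. TATAAA was in 1 of the 40 (2.5%), against 8.64% of tested genes, and the E2F motif TTCCCGC in 2 (5%), against 10.1%. In the list of other mitosis genes, TATAAA was in 6.90% of the 58 and TTCCCGC in 19.0%, which was above the share of tested genes. The windows of Pttg1, Melk, Nuf2, Birc5, Nusap1, Ncaph and Arhgef39 held neither CHR form and no CCAAT, and 5 of these genes (Nuf2, Birc5, Nusap1, Ncaph and Arhgef39) were called lower. A match describes letters, not binding.

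The 120 bases before the start are shown for 8 genes of different roles that carry such motifs, and for Pttg1, which was chosen after its values were seen. Capitals mark both CHR forms and CCAAT boxes on either strand, so that TTCAAA is the CHR and ATTGG is the box read on the other strand, and each sequence runs 5′ to 3′ on the strand of its gene. The stretches are chr10:69352913-69353032 (minus strand) for Cdk1, chr4:118437344-118437463 (minus) for Cdc20 and chr2:164769809-164769928 (plus) for Ube2c. Those of Cenpm, Kif11 and Kif22 are chr15:82244337-82244456 (minus), chr19:37376262-37376381 (plus) and chr7:127042421-127042540 (minus). Top2a, Prc1 and Pttg1 are shown at chr11:99024190-99024309 (minus), chr7:80294356-80294475 (plus) and chr11:43425982-43426101 (minus). In Cdk1, boxes and CHR forms alternate, and in Top2a, 3 boxes lie between 2 CHR forms. RefSeq lists several Pttg1 transcripts and the table holds a window at 1 start, which lies inside the span of the gene.
Cdk1: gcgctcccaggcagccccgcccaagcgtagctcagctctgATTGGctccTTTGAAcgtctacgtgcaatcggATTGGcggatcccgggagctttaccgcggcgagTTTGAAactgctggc
Cdc20: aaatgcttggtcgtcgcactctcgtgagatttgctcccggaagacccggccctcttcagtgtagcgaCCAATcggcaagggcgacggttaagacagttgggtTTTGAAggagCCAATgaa
Ube2c: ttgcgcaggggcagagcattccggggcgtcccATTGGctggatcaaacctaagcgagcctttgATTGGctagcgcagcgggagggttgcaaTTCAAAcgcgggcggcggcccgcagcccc
Cenpm: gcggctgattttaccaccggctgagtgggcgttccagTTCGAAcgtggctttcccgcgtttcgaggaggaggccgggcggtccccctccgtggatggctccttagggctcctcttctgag
Kif11: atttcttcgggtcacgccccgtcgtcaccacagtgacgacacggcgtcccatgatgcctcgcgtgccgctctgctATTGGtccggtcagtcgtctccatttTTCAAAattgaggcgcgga
Kif22: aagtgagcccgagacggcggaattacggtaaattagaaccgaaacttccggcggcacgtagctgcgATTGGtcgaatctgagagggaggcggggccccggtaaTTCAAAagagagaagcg
Top2a: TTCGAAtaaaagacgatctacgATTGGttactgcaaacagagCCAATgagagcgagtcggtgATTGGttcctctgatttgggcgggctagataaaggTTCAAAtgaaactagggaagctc
Prc1: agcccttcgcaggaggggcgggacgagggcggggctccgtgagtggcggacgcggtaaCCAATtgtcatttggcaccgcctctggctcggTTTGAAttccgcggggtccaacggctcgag
Pttg1: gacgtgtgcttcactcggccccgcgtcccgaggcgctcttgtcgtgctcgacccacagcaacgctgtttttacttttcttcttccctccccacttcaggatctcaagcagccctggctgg

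Among the cyclins and mitotic kinases, 7 of 9 genes fell, with a median log2 fold change of -2.85. Ccnb1 and Ccnb2 encode the B-type cyclins that activate Cdk1. Ccnb2 had 11.97, 39.7 and 53.1 CPM in kidney replicates 7, 8 and 22, against 244, 237 and 266 CPM in spleen and marrow replicates 2, 24 and 26. Ccnb1 had 1.30, 9.60 and 6.75 CPM in the kidney libraries, against 65.3, 68.5 and 70.4 CPM in spleen and marrow. Both pairs of groups were apart, with log2 fold changes of -2.85 ± 0.47 (SE, adjusted p = 0.00769) for Ccnb2 and -3.55 ± 0.58 (adjusted p = 0.00756) for Ccnb1. Cdk1, their kinase, had 6.04, 33.99 and 50.5 CPM in kidney, against 237, 228 and 235 CPM in spleen and marrow. Its kidney libraries differed more from each other than its spleen and marrow libraries, and its change was -2.98 ± 0.62 (adjusted p = 0.0182). Ccna2, the cyclin of S phase and early mitosis, had 9.72, 22.1 and 31.7 CPM in kidney, against 141, 134 and 131 CPM in spleen and marrow (log2 fold change -2.71 ± 0.38, adjusted p = 0.00443). Aurkb, the kinase of the chromosomal passenger complex, had 5.45, 12.5 and 12.9 CPM in kidney, against 83.4, 93.4 and 100.2 CPM in spleen and marrow. Its log2 fold change of -3.19 ± 0.33 had the smallest p of this group (adjusted p = 0.00134). The polo-like kinase Plk1 and the spindle pole kinase Aurka also fell, with log2 fold changes of -2.67 and -2.60.

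The kinases Nek2 and Melk did not pass the test. Nek2, which acts in the separation of centrosomes, had 0.118, 3.03 and 0 CPM in kidney replicates 7, 8 and 22, against 10.6, 8.89 and 10.2 CPM in spleen and marrow (log2 fold change -3.08 ± 1.03, adjusted p = 0.0916). Melk, which is abundant in dividing cells, had 1.30, 1.01 and 9.10 CPM in kidney, against 20.9, 19.0 and 16.7 CPM in spleen and marrow (-2.46 ± 0.78, adjusted p = 0.0774). The groups did not overlap for either gene, and the spread in kidney was wide, with replicate 8 high for Nek2 and replicate 22 high for Melk. Both genes passed the test without kidney replicate 22 (-2.67 for Nek2, adjusted p = 0.0429, and -4.03 for Melk, adjusted p = 0.000284), and with DESeq2 or limma-voom. Nek2 also passed without kidney replicate 8 (-6.66, adjusted p = 0.00499), where Melk did not (adjusted p = 0.135). Neither passed without kidney replicate 7 (adjusted p = 0.145 for Nek2 and 0.169 for Melk) or without any 1 spleen and marrow library (adjusted p = 0.196 to 0.257). Nek2 was called in 7 and Melk in 6 of 19 alternatives.

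Of the genes of the spindle checkpoint and the anaphase-promoting complex, 5 of 7 fell. Bub1, a checkpoint kinase of the kinetochore, showed the lowest log2 fold change of all 48 genes. It had 0.474, 1.01 and 0.294 CPM in kidney replicates 7, 8 and 22, against 25.5, 19.0 and 17.4 CPM in spleen and marrow (-4.98 ± 0.48, adjusted p = 0.00109), and 2 of the 3 kidney libraries lay near the level of 3 counts. Fbxo5, which encodes the inhibitor Emi1 of the anaphase-promoting complex, had 1.78, 4.42 and 2.94 CPM in kidney, against 47.3, 42.3 and 46.0 CPM in spleen and marrow (-3.88 ± 0.36, adjusted p = 0.000984). Cdc20, the activator of that complex in mitosis, had 5.69, 13.5 and 21.1 CPM in kidney, against 101, 96.2 and 99.2 CPM in spleen and marrow (-2.92 ± 0.42, adjusted p = 0.00460). Every kidney library was below every spleen and marrow library for these genes, whose products restrain or start anaphase. The checkpoint kinases Bub1b and Ttk also fell, with log2 fold changes of -2.33 and -3.20.

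Ube2c and Pttg1, a ubiquitin-conjugating enzyme and a substrate of the same complex, were the abundant exceptions. Ube2c had 8.77, 50.3 and 176 CPM in kidney replicates 7, 8 and 22, against 558, 500.1 and 537 CPM in spleen and marrow. The groups were apart, but the kidney libraries were so spread that the log2 fold change of -2.79 ± 0.85 missed the threshold (adjusted p = 0.0674). Without kidney replicate 22 it was -4.18 (adjusted p = 0.00478), without kidney replicate 7 it was -2.23 (adjusted p = 0.0388), and DESeq2 gave -2.75 (adjusted p = 0.0437). It missed the threshold without kidney replicate 8 (-2.54, adjusted p = 0.158) and without any 1 spleen and marrow library (adjusted p = 0.155 to 0.183), and was called in 7 of 19 alternatives. Pttg1 had 102, 144 and 126 CPM in kidney, against 121, 141 and 146 CPM in spleen and marrow. These groups overlapped, and the log2 fold change was -0.13 ± 0.17 (adjusted p = 0.666). Over the 19 alternatives it lay between -0.26 and 0.00, and the adjusted p was never under 0.385. The next highest log2 fold change of the 48 genes was that of Bub1b, at -2.33. Pttg1 made up 31.7%, 19.4% and 11.2% of the summed CPM of the 48 genes in kidney replicates 7, 8 and 22, against 2.42% to 3.07% in spleen and marrow. Without Pttg1, the sum in the kidney libraries was 4.70%, 12.8% and 21.4% of the spleen and marrow mean.

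All 9 kinetochore and centromere genes fell, with a median log2 fold change of -2.94. Birc5, which encodes survivin of the chromosomal passenger complex, had 18.2, 70.4 and 91.9 CPM in kidney replicates 7, 8 and 22, against 696, 596 and 635 CPM in spleen and marrow (-3.43 ± 0.52, adjusted p = 0.00570). Cenpa, the histone H3 variant that marks centromeres, had 28.2, 70.4 and 108 CPM in kidney, against 439, 397 and 462 CPM in spleen and marrow (-2.67 ± 0.42, adjusted p = 0.00688). In both, kidney replicate 7 was the lowest library and kidney replicate 22 the highest in kidney. Cenpm, a subunit of the inner kinetochore, had 4.62, 5.94 and 7.63 CPM in kidney, against 77.8, 65.4 and 69.2 CPM in spleen and marrow, the smallest p of the 48 genes (-3.57 ± 0.25, adjusted p = 0.000436). Cenpf, a large protein of the outer kinetochore, had 8.77, 16.7 and 16.1 CPM in kidney, against 90.3, 80.4 and 84.6 CPM in spleen and marrow (-2.63 ± 0.27, adjusted p = 0.00132). Their kidney libraries were close together compared with the distance to spleen and marrow. Nuf2 and Spc24 belong to the Ndc80 complex, which grips microtubules. Nuf2 had 4.38, 2.91 and 6.46 CPM in kidney, against 35.6, 39.0 and 41.9 CPM in spleen and marrow (-3.12 ± 0.33, adjusted p = 0.00136). Spc24 had 5.33, 16.7 and 72.0 CPM in kidney, against 242, 192 and 212 CPM in spleen and marrow. Its change of -2.84 ± 0.78 was at the edge of the threshold (adjusted p = 0.04999, and 0.0543 with DESeq2's size factors), and kidney replicate 22 stood high. The other Ndc80 complex genes, Ndc80 and Spc25, fell, with log2 fold changes of -2.94 and -2.83, and the kinetochore motor Cenpe with -3.33.

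Of the spindle motors and microtubule binders, 9 of 9 fell, with the lowest median of the roles that hold several genes, -3.15. Nusap1, which bundles spindle microtubules, had 4.03, 9.10 and 4.99 CPM in kidney replicates 7, 8 and 22, against 112, 107 and 122 CPM in spleen and marrow (-4.21 ± 0.32, adjusted p = 0.000565). Kif11, the motor that pushes spindle poles apart, had 1.66, 2.53 and 4.11 CPM in kidney, against 59.0, 42.0 and 43.5 CPM in spleen and marrow (-4.20 ± 0.37, adjusted p = 0.000829). Dlgap5, which stabilizes microtubules near chromosomes, had 2.02, 1.90 and 3.23 CPM in kidney, against 37.5, 34.6 and 28.6 CPM in spleen and marrow (-3.87 ± 0.32, adjusted p = 0.000706). In these genes kidney replicate 22 was close to the other kidney libraries. Kif22, a motor that moves along chromosome arms, had 2.49, 10.4 and 10.6 CPM in kidney, against 48.1, 60.2 and 58.1 CPM in spleen and marrow (-2.86 ± 0.49, adjusted p = 0.00923). Hmmr, which acts at spindle poles, had 2.49, 14.2 and 21.4 CPM in kidney, against 109, 66.9 and 79.3 CPM in spleen and marrow (-2.80 ± 0.63, adjusted p = 0.0254). Kidney replicate 7 was lowest for both. The remaining Tpx2, Kif15, Kif2c and Kif4 fell, with log2 fold changes of -3.51 to -2.63.

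All 4 genes of chromosome structure fell. Top2a, the topoisomerase that untangles sister chromatids, had 5.45, 23.1 and 23.2 CPM in kidney replicates 7, 8 and 22, against 215, 171 and 162 CPM in spleen and marrow (-3.43 ± 0.50, adjusted p = 0.00484). Mki67, which encodes the proliferation antigen Ki-67 of the surface of mitotic chromosomes, had 13.8, 16.8 and 41.7 CPM in kidney, against 161, 149 and 133 CPM in spleen and marrow (-2.65 ± 0.40, adjusted p = 0.00577). Kidney replicate 7 was low for Top2a and kidney replicate 22 high for Mki67. The condensin subunit Ncapg had 2.37, 4.30 and 5.87 CPM in kidney, against 26.4, 28.3 and 27.1 CPM in spleen and marrow (-2.75 ± 0.37, adjusted p = 0.00353). Ncaph, another subunit, had 2.61, 3.54 and 10.3 CPM in kidney, against 33.5, 29.7 and 30.3 CPM in spleen and marrow (-2.59 ± 0.50, adjusted p = 0.0137).

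The 9 cytokinesis genes all fell, with a median log2 fold change of -2.65. Shcbp1, a partner of the centralspindlin complex at the midbody, had 0.593, 1.90 and 2.64 CPM in kidney replicates 7, 8 and 22, against 40.0, 38.2 and 33.5 CPM in spleen and marrow (-4.55 ± 0.47, adjusted p = 0.00134). Arhgef39 had 1.30, 1.90 and 2.94 CPM in kidney, against 27.1, 29.1 and 34.2 CPM in spleen and marrow (-3.95 ± 0.36, adjusted p = 0.00102). Kif20a, a motor of the central spindle, had 3.32, 3.79 and 2.35 CPM in kidney, against 27.3, 25.4 and 27.6 CPM in spleen and marrow (-3.05 ± 0.30, adjusted p = 0.00109). No library of one group reached the other for any of these. Prc1, which crosslinks the antiparallel microtubules of the central spindle, had 5.33, 19.8 and 23.5 CPM in kidney, against 91.3, 78.1 and 91.8 CPM in spleen and marrow (-2.45 ± 0.47, adjusted p = 0.0140). Racgap1, a centralspindlin subunit, had 7.70, 8.47 and 15.6 CPM in kidney, against 65.5, 67.3 and 61.6 CPM in spleen and marrow (-2.65 ± 0.30, adjusted p = 0.00169). Both were detected well above the level of 3 counts in every kidney library. The remaining Kif23, Kif20b, Ect2 and Anln fell, with log2 fold changes of -3.71 to -2.38. Fam64a (Pimreg), a nuclear protein of dividing cells, had 1.66, 7.71 and 0 CPM in kidney, against 36.8, 41.5 and 42.3 CPM in spleen and marrow (-3.56 ± 0.83, adjusted p = 0.0281).

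On the deposited FPKM scale, which allows genes to be compared per length, Pttg1 was the most abundant of the 48 genes in kidney and Birc5 in spleen and marrow. Pttg1 averaged 106 ± 25.1 FPKM in kidney and 121 ± 12.5 FPKM in spleen and marrow (SD, n = 3 each), ranking 1 in kidney and 4 in spleen and marrow. Birc5 averaged 32.6 ± 18.5 FPKM in kidney and 377 ± 29.7 FPKM in spleen and marrow, and Ube2c 42.0 ± 39.4 FPKM in kidney and 342 ± 22.01 FPKM in spleen and marrow. Birc5 was above Ube2c in spleen and marrow replicates 2, 24 and 26 (409, 350.5 and 372 FPKM, against 364, 320 and 342 FPKM). It was also above Ube2c in kidney replicates 7 and 8, but below it in kidney replicate 22 (43.6 against 84.7 FPKM). Cenpa lay below both in spleen and marrow, at 165 ± 10.9 FPKM. A single row for the microRNA Mir6236 accounted for 6.96% to 9.82% of all FPKM in kidney and 17.1% to 17.8% in spleen and marrow, so genes were ranked within a group. FPKM was also compared between groups, for Hba-a1, for Hjurp, Mastl, Kntc1 and Mis12 (below), and in the limma-trend alternatives. The effect of that row on these comparisons was not tested.

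Reads of some members may be shared with other genes. The exons of 12 of the 48 genes overlap those of another gene in the GENCODE vM21 annotation, 11 of them a gene on the opposite strand. The library chemistry does not mark strand, so where these exons overlap, reads of the pairs cannot be told apart. The protein-coding partners on the opposite strand are Exosc9 for Ccna2, Elovl1 for Cdc20, Cdc23 for Kif20a, Pdzd11 for Kif4, Lcorl for Ncapg, Oip5 for Nusap1, Rccd1 for Prc1 and Tnnc2 for Ube2c. RefSeq also lists pseudogene copies of Ccnb1, Ccnb2, Kif22 and Kif4.

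Other genes of the cycle were read in the same fit. Of 178 tested genes in 6 lists, 85 were lower in kidney and 3 higher, against the 5.9% and 7.83% of all genes tested. Of the 65 other mitosis genes with a row, 42 fell and 0 rose, with a median log2 fold change of -2.45. Smc2 and Smc4, the core of condensin, fell, with log2 fold changes of -2.84 ± 0.29 and -2.04 ± 0.22, and the kinetochore gene Cenpw with -2.57 ± 0.29 (SE). For Smc2 the levels were 22.9, 50.4 and 39.6 CPM in kidney replicates 7, 8 and 22, against 306, 246 and 254 CPM in spleen and marrow. Among 40 genes of S phase and replication, 22 fell and 0 rose (median -1.70 on the log2 scale). The helicase subunit Mcm5 had 3.79, 5.69 and 3.23 CPM in kidney, against 51.8, 35.2 and 35.7 CPM in spleen and marrow (-3.24 ± 0.32, adjusted p = 0.00111). The ribonucleotide reductase subunit Rrm1 and the clamp loader subunit Rfc5 fell, with log2 fold changes of -2.22 ± 0.23 and -1.70 ± 0.23. These counts depended on the spleen and marrow libraries: without replicate 2, 24 or 26 of them, 31, 36 and 32 of the 178 genes were called lower, while the share over all genes tested also dropped, to 1.84%, 1.84% and 1.59%. For other mitosis genes the count was then 16, 17 and 16, and for S phase genes 9, 11 and 9, while S phase genes called lower numbered 36 without kidney replicate 22. In that last fit, 11.1% of all genes tested were called lower.

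Regulators of mitotic entry and exit had medians closer to that of all genes than the mitosis lists had. The median of the entry regulators was not closer than that of the S phase genes. Of 17 regulators of G2/M entry, 8 fell and 0 rose (median log2 fold change -1.74). Cks1b, a small partner of cyclin-dependent kinases, had 44.0, 80.9 and 100.4 CPM in kidney replicates 7, 8 and 22, against 632, 474 and 498 CPM in spleen and marrow (-2.84 ± 0.30, adjusted p = 0.00142). Plk4, the kinase of centriole duplication, and Cdc25c, a phosphatase that activates Cdk1, fell, with log2 fold changes of -2.66 ± 0.24 and -3.41 ± 0.49. Of 16 subunits of the anaphase-promoting complex and its close partners, 4 fell and 0 rose (median -0.25). Cdc23, Anapc5 and Anapc15 fell, with log2 fold changes of -1.58 ± 0.26, -1.09 ± 0.19 and -1.20 ± 0.23, and exons of Cdc23 overlap those of Kif20a. The remaining call was the ubiquitin-conjugating enzyme Ube2s (-1.55 ± 0.31, adjusted p = 0.0159). The summed level of this list was 80.0%, 77.5% and 78.3% of the spleen and marrow mean in kidney replicates 7, 8 and 22, where the 48 mitosis genes stood at 6.70%, 15.4% and 23.5%. Without spleen and marrow replicate 2, 24 or 26, G2/M entry regulators called lower numbered 3 each time, and subunits of the complex 0, 1 and 0. Of all genes tested, 1.84%, 1.84% and 1.59% were then called lower. Without kidney replicate 7, 5 G2/M entry regulators were called lower, as were 4.48% of all genes tested.

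**Figure D3:**
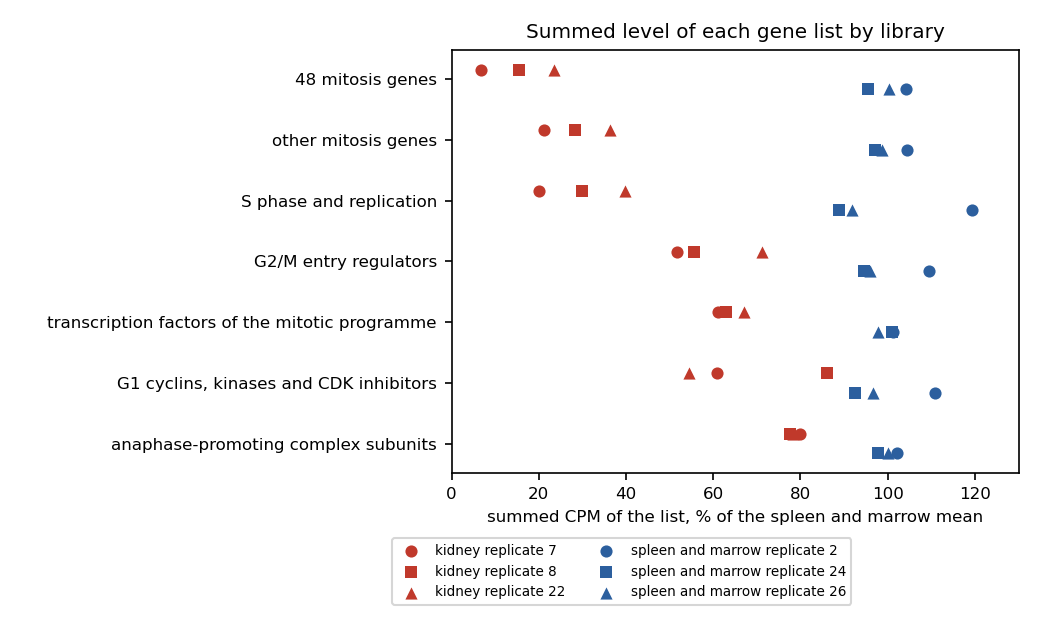
Summed CPM of the 48 mitosis genes and of 6 other gene lists in each library, as percent of the spleen and marrow mean of that list, with kidney in red and spleen and marrow in blue. The kidney libraries lie at 6.70% to 23.5% for the mitosis genes and at 77.5% to 80.0% for the anaphase-promoting complex list.

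Of 24 transcription factors and pocket proteins of the mitotic programme, 4 fell and 0 rose (median log2 fold change -0.58). Foxm1, an activator of G2/M genes, had 0.474, 3.79 and 0.881 CPM in kidney replicates 7, 8 and 22, against 19.4, 23.8 and 21.6 CPM in spleen and marrow (-3.58 ± 0.67, adjusted p = 0.0127). E2f8, a repressor of the E2F family, and Rbbp4, a histone-binding subunit of MuvB and chromatin complexes, fell, with log2 fold changes of -1.64 ± 0.29 and -0.72 ± 0.19. The remaining call was the pocket protein Rbl1 (-1.33 ± 0.36, adjusted p = 0.0464). None of these calls held without spleen and marrow replicate 2, 24 or 26, and Foxm1 then had an adjusted p of 0.0658 to 0.0675. Without kidney replicate 8 the list had 2 calls, and without kidney replicate 22 it had 9. In these fits, 5.38% and 11.1% of all genes tested were called lower.

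G1 genes went both ways, with 5 of 16 lower in kidney and 3 higher. Among D-type cyclins, which drive entry into the cycle, Ccnd2 rose and Ccnd3 fell. Ccnd2 had 47.0, 82.7 and 83.4 CPM in kidney replicates 7, 8 and 22, against 11.1, 7.11 and 8.15 CPM in spleen and marrow (3.01 ± 0.31, adjusted p = 0.00128). Ccnd3 had 107, 102 and 114 CPM in kidney, against 296, 285 and 294 CPM in spleen and marrow (-1.43 ± 0.13, adjusted p = 0.000828). The groups did not overlap for either cyclin. Ccnd1 had 8.89, 55.0 and 6.75 CPM in kidney, against 0.919, 1.09 and 0.965 CPM in spleen and marrow (4.56 ± 0.90, adjusted p = 0.0151), and kidney replicate 8 stood high. In that library, the 8 endothelial markers summed to 600.3 CPM, against 20.03 and 14.1 CPM in kidney replicates 7 and 22, and their part in Ccnd1 was not tested. Without kidney replicate 8 the log2 fold change of Ccnd1 was 2.96 (adjusted p = 0.0167), and limma-voom with all libraries did not call it (adjusted p = 0.1025). The growth regulator Myc had 20.4, 23.6 and 22.3 CPM in kidney, against 8.61, 5.88 and 7.40 CPM in spleen and marrow (1.59 ± 0.28, adjusted p = 0.00983). Ccne2, a cyclin of S phase entry, and Cdkn2d, an inhibitor of cyclin D kinases, fell, with log2 fold changes of -3.06 ± 0.36 and -1.87 ± 0.30. The other calls were the kinase Cdk4 (-1.15 ± 0.20, adjusted p = 0.00954) and the phosphatase Cdkn3 (-3.12 ± 0.62, adjusted p = 0.0152). Without spleen and marrow replicate 24 or 26, the calls of Ccnd1 and Myc were lost (adjusted p = 0.0786 and 0.0849 for Ccnd1, and 0.0692 and 0.0738 for Myc). Without spleen and marrow replicate 2, the calls of Ccnd1 (adjusted p = 0.0928) and Cdkn2d (adjusted p = 0.0513) were lost and the list had 3 lower calls, while without kidney replicate 22 it had 8. Of all genes tested, 1.84% and 11.1% were called lower in these fits.

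**Figure D4:**
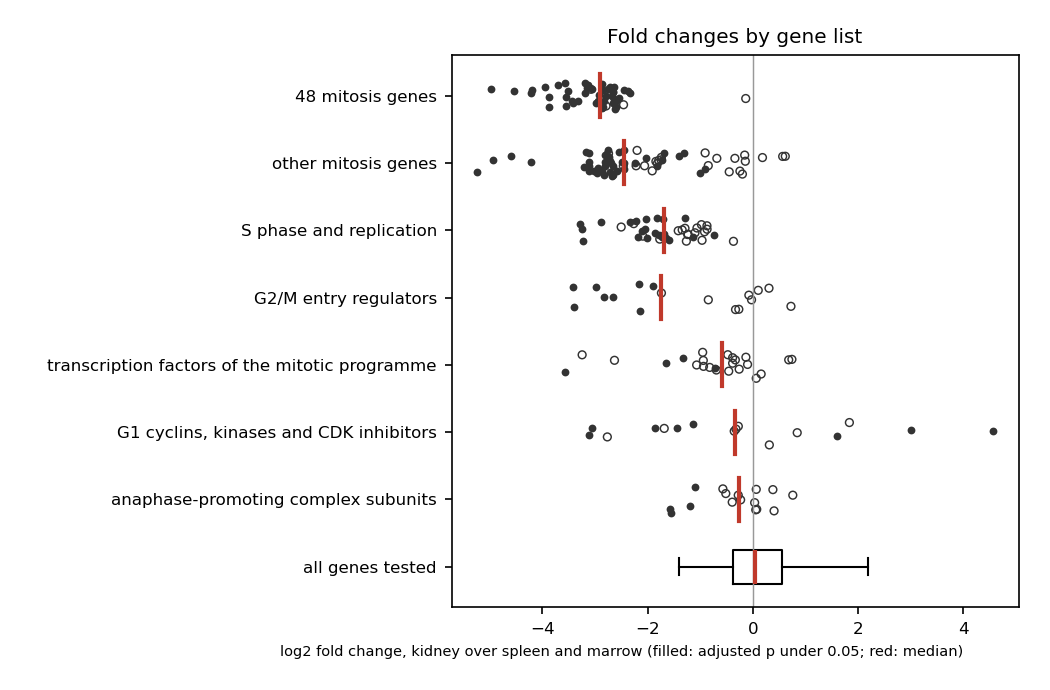
Log2 fold changes (kidney over spleen and marrow) of the genes in each list, filled for an adjusted p under 0.05, with the list's median in red and the spread of all genes tested as a box (quartiles, whiskers to the 5th and 95th percentiles). The medians of the mitosis lists lie at -2.90 and -2.45, those of the G1 and anaphase-promoting complex lists at -0.34 and -0.25, and that of all genes at 0.05.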

How the data were processed

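Per the labels' protocols, cDNA was made from 2 ng of RNA with SMART-Seq v4. This chemistry does not mark strand. The authors deposited raw counts as whole numbers, in rows named by gene symbol. The deposited FPKM values were scaled for depth and length by the authors. The submitters' processing notes name STAR 2.5, Cufflinks 2.2.1, bcl2fastq 2.18 and the build mm9 without saying what each was for. For the annotation and the counting program, nothing is given in the sources used here. The reference tables are of another build (GRCm38), so they served for names, overlaps and promoters only, and no mm9 coordinates are given. The 92 spike-in rows held no counts.

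The test on counts was that of edgeR 4.0.16 under R 4.3.3 (filterByExpr, TMM, two-sided quasi-likelihood F tests), with p-values adjusted over all 10626 genes tested. CPM is the count per 1000000 of TMM-adjusted library size. The SE is the size of the log2 fold change divided by the square root of F. The fit was tested on simulated counts. In each role, genes with the 3 smallest p or the 3 highest mean FPKM were described by library. From each other list, up to 3 called genes per direction by smallest p were named, and any further gene was picked with its values in view. Members, lists and rules were chosen with earlier results of these data known. The level of 3 counts covers counting error only.

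The alternatives tried were DESeq2 1.42.0, DESeq2's size factors in edgeR, library size scaling, scaling without the cycle genes, other filters, limma-voom (limma 3.58.1), a test against a log2 fold change of 1, limma-trend on log2(FPKM + 1) and log2(FPKM + 0.1), thinning to equal depth, leaving out each library, and summing spleen and marrow replicates 24 and 26. These 2 libraries were the most alike (chi-square per degree of freedom 2.96 over all genes, against 23.7 and 25.8 for the other spleen and marrow pairs and 42.3 to 65.2 in kidney), but differed by more than sampling noise and were kept apart. Figures were drawn with matplotlib 3.10.9.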

Additional observations from a re-analysis of the deposited data

How the results depend on the processing

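No paired analysis was possible because no replicate number is shared between kidney and spleen and marrow. Over the 19 alternatives the number of mitosis genes called lower in kidney lay between 30 and 47, against 44, and none was called higher. The share of all genes tested called lower ran from 1.37% (test against a log2 fold change of 1) to 11.1% (without kidney replicate 22). Of 178 genes in the other cycle lists, 85 were called lower. That count was 36 in the test against a log2 fold change of 1, which asks for a larger change, and 35 with spleen and marrow replicates 24 and 26 summed, which leaves fewer libraries. Leaving out 1 library gave 31 to 123, while the share of all genes tested called lower ran from 1.59% to 11.1%. The count called higher was 3, and it was 1 with log2(FPKM + 1) and no filter, 1 with the 2 libraries summed, and 1 to 5 when 1 library was left out. The median log2 fold change of all genes moved most in log2(FPKM + 0.1), to -0.22, where that of the mitosis genes was -3.15. Low kidney levels limit Nek2, Bub1, Ttk, Ect2 and Fam64a, which had 3 or fewer counts in at least 1 kidney library.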

Other observations

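A few genes of the list of other mitosis genes and of G2/M entry regulators were higher in CPM in kidney replicate 22 than in any other library. They were chosen after their values were seen, and kidney replicate 22 had the fewest counts, 3492391 in total. Hjurp, the chaperone that loads the centromeric histone Cenpa, had 1.78, 1.26 and 15.3 CPM in kidney replicates 7, 8 and 22, against 4.36, 4.51 and 2.89 CPM in spleen and marrow replicates 2, 24 and 26. Mastl, a kinase that restrains a phosphatase during mitosis, had 0.474, 0.253 and 15.3 CPM in kidney, against 4.59, 5.75 and 5.36 CPM in spleen and marrow. Kntc1, a checkpoint protein of the kinetochore, had 0.474, 0.253 and 12.3 CPM in kidney, against 6.78, 4.65 and 2.89 CPM in spleen and marrow. Mis12, of the outer kinetochore, had 10.1, 10.7 and 35.8 CPM in kidney, against 10.9, 11.8 and 13.5 CPM in spleen and marrow. On the FPKM scale, kidney replicate 22 stayed the highest library for Mastl, Kntc1 and Mis12, but not for Hjurp. Hjurp had 0.926 FPKM there, below 0.958 and 1.21 FPKM in spleen and marrow replicates 2 and 24. None of Hjurp, Mastl, Kntc1 and Mis12 was called in either direction, with adjusted p from 0.478 for Mis12 to 0.979 for Mastl.

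Among the spleen and marrow libraries, replicate 2 had the highest summed level of S phase genes, 2649 CPM, against 1968 and 2036 CPM in replicates 24 and 26. Over the 48 mitosis genes the same libraries were closer, at 4999, 4584 and 4817 CPM. Of 11 granulocyte precursor markers, 5 (Elane, Mpo, Prtn3, Ctsg and Ms4a3) were highest in replicate 2 and 6 (Cebpe, Camp, Ngp, Ltf, Lcn2 and Fcnb) were lowest there, and their sum was 10590 CPM in replicate 2, against 11400 and 12300 CPM in replicates 24 and 26.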
